A study of Mus musculus with 14 samples.

Results

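The genes described here are the antigen presentation genes of the mouse, measured by RNA sequencing in 14 carotid artery libraries. They were chosen by gene name and type, with earlier results of these data known. The rule took every protein-coding gene of the deposited gene table whose symbol begins with H2-, together with B2m, Tap1, Tap2, Tapbp, Psmb8, Psmb9, Psmb10, Cd74, Ciita and Nlrc5. This gave 45 of 35275 genes, and 8 further H2- genes of another gene type were not taken. In the deposited coordinates 40 of the 45 members lie on chromosome 17, within the major histocompatibility complex between 33915899 (Tapbp) and 37483552 (H2-M2), and the others are Nlrc5 and Psmb10 on chromosome 8, B2m on 2, Ciita on 16 and Cd74 on 18. The series asked how deletion of Poldip2, which encodes polymerase delta interacting protein 2, in the endothelium or in smooth muscle changes RNA in the carotid artery.

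All mice were of the C57BL/6 strain and 10 weeks old. Qiazol, a lysis reagent, was passed through the lumen of the arteries, which gave an endothelial-enriched fraction, and a second RNA sample came from the artery that was left over, made of media and adventitia. The flushed fraction comprised 4 libraries of Poldip2 endothelial knockout mice (flushed knockouts 1 to 4) and 4 of Poldip2-floxed littermate controls (flushed controls 1 to 4). The left-over fraction comprised 4 libraries labelled as Poldip2 smooth muscle knockout and 2 labelled as Poldip2-floxed littermate control. The sources used here do not give the Cre line that drove each deletion, the sex of the mice or whether a library came from 1 animal. P-values therefore measure the spread between these libraries, which may be partly technical.

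The left-over labels were in doubt before any result was read. Poldip2, the deleted gene, was at 36.5, 24.8, 25.6 and 21.5 CPM in flushed knockouts 1 to 4 and at 46.3, 43.7, 48.3 and 59.8 CPM in flushed controls 1 to 4. CPM adjusts each count for the depth of its library, with TMM scaling over all 14 libraries. In the left-over fraction Poldip2 was at 55.0, 51.8, 68.8 and 70.8 CPM in the libraries labelled knockout and at 27.4 and 23.5 CPM in those labelled control, the opposite of what the labels say. The deposited column of smooth muscle control means was equal to the average over the 4 libraries with a knockout label for each of 14805 genes compared (tolerance 1e-06). The deposited column of smooth muscle knockout means was equal to the average over the 2 libraries labelled control for 1 of 14498 genes, so that column does not come from these 2 libraries alone. Left-over libraries are therefore named by their label throughout, and every direction drawn between them holds for the labels only. Of the numbers in the labels, 3 occur both among the flushed controls and among the left-over libraries labelled knockout.

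Library depth ran from 15019891 to 23287155 counts, so that 3 counts corresponded to 0.129 to 0.200 CPM, which is the upper limit that a count of 0 allows and covers counting error only. The flushed libraries carried the labelled tissue: 12 endothelial markers summed to 17137 to 20216 CPM there and to 291 to 1234 CPM in left-over libraries. Smooth muscle markers (10 genes) summed to 395 to 744 CPM in flushed and 7307 to 9297 CPM in left-over libraries, and fibroblast markers (10 genes) to 1146 to 4392 CPM in flushed and 27006 to 38353 CPM in left-over libraries. Both artery fractions also held leukocyte RNA. Macrophage markers (12 genes) summed to 223 to 981 CPM in flushed and 4178 to 5691 CPM in left-over libraries, and no marker on any of these lists was at 0 throughout a fraction. The listed gene Mertk went the other way, with 1473 to 4965 counts in flushed and 674 to 806 in left-over libraries. It therefore weighs heavily on the flushed macrophage sums.

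MHC class I molecules are shown on nearly all nucleated cells and carry peptides of the cell's own proteins to CD8+ T cells. The peptides are cut by the proteasome, pumped into the endoplasmic reticulum by the TAP transporter and loaded with the help of tapasin. MHC class II molecules are made mainly by dendritic cells, macrophages and B cells, take up peptides from endocytosed material and show them to CD4+ T cells, while vascular endothelium of the mouse is known for constitutive class I and for little class II unless interferon gamma is present. Transcription of class I genes is raised by Nlrc5 and that of class II genes depends on Ciita, and both act through factors bound at a shared arrangement of promoter boxes that ends in a CCAAT box.

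Promoters of 6 members are printed because they hold these boxes and because their genes behaved differently between the artery fractions. The sequences are RefSeq promoter windows on GRCm38.p6, cut at the gene's start, with matches to 5 searched patterns in capitals. The patterns, searched on both strands, were CCAAT or ATTGG (the CCAAT box), GGGGA and TCCCC 1 base apart (a kappa B site), GAAA followed after 2 bases by a further GAAA (an interferon regulatory factor site), TGACGTCA (a cyclic AMP response element), and TGANGA followed after 10 to 30 bases by ATTGG, which overlaps the first pattern.
H2-K1 (chr17:34000348-34000597, - strand): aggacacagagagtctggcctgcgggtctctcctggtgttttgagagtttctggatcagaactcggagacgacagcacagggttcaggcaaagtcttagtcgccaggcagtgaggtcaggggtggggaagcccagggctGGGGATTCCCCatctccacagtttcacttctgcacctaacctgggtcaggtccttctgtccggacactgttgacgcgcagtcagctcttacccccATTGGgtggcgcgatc
H2-Q6 (chr17:35424600-35424849, + strand): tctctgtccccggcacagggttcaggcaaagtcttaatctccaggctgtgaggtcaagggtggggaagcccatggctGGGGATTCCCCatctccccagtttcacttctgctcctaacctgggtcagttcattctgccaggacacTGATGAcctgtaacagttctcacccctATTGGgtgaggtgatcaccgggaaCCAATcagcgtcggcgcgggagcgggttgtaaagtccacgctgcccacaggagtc
H2-T22 (chr17:36042748-36042992, - strand): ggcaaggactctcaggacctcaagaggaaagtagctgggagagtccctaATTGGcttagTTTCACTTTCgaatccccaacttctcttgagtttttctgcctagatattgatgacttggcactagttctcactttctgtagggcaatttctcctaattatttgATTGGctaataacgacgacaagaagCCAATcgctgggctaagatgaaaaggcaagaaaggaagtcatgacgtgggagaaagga
B2m (chr2:122147437-122147685, + strand): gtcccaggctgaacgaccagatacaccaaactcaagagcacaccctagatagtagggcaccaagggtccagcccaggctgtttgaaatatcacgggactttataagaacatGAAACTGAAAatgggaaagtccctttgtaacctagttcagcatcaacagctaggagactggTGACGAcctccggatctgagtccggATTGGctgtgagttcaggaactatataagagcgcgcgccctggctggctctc
H2-Aa (chr17:34287828-34288073, - strand): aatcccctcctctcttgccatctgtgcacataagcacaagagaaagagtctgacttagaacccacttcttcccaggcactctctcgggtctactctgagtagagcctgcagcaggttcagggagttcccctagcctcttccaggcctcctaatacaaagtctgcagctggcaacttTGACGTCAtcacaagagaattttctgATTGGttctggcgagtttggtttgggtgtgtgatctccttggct
H2-Eb1 (chr17:34305617-34305866, + strand): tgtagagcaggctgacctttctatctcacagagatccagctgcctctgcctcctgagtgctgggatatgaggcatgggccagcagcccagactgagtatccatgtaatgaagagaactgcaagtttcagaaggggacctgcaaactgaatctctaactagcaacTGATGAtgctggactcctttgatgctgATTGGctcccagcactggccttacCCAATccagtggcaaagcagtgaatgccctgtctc

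Of the 45 members, 37 had at least 1 such window of 300 bases. The CCAAT box occurred in 32 of these 37 members and in 37.4% of all 32851 windows. The kappa B letters occurred in H2-K1, H2-D1 and H2-Q6 and in 16 windows of all 32851 (0.049%). The interferon regulatory factor letters occurred in B2m, H2-T22 and H2-T23 and in 3.44% of all windows. The paired pattern occurred in 9 members, among them B2m, H2-D1, H2-Q6, H2-Q7 and H2-Eb1, and in 1.44% of all windows, and the cyclic AMP response element in H2-Aa and 1.79% of all windows. A match is a description of these letters and not evidence that a factor binds there.

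Class I RNA was abundant in both artery fractions, and class II RNA was low and uneven in the flushed fraction. For levels between genes the deposited FPKM values, which are scaled to gene length and library total, were used. H2-D1, a classical class I heavy chain, had the highest median of all members in the flushed fraction, 2137 FPKM (range 1666 to 2909.8). B2m, the light chain of class I molecules, followed with 1491 FPKM (1094 to 2029), and H2-K1, the other classical heavy chain of this strain, with 818 FPKM (582 to 1280.0). The ranges of H2-D1 and B2m overlapped, and so did those of B2m and H2-K1. In the left-over fraction B2m came first with a median of 1320.4 FPKM, followed by H2-D1 with 925 and then by the class II invariant chain Cd74 with 530.1 FPKM. Cd74 ranked eighth in the flushed fraction, with a median of 57.7 FPKM.

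The members took 0.552 to 1.36% of all counts of a library. The class II genes took 0.00398 to 0.0717% in flushed libraries and 0.117 to 0.233% in left-over libraries, without overlap. At the low end, 9 members had fewer than 50 counts over all 14 libraries and entered no test: H2-Oa, H2-M11, H2-M10.4, H2-M10.3, H2-Q2, H2-M10.1, H2-M1, H2-M10.6 and H2-Ke6. H2-Oa is the alpha chain of the H2-O inhibitor of peptide exchange, which is known from B cells, and H2-Ke6 encodes a hydroxysteroid dehydrogenase and has no role in presentation.

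**Figure D1:**
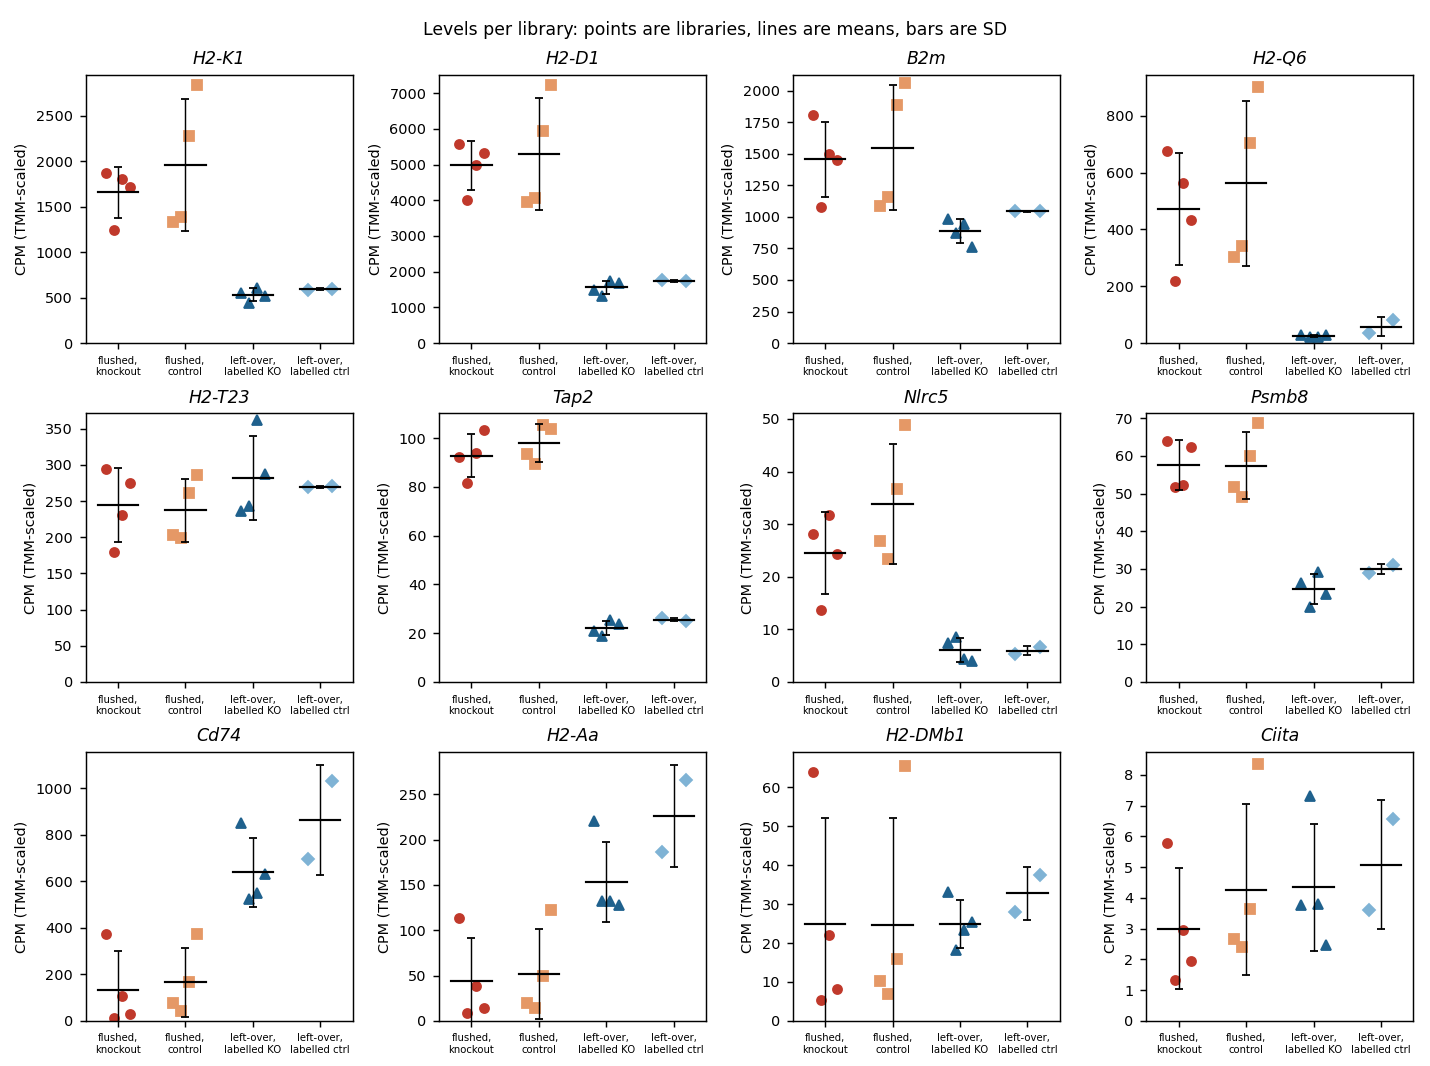
Normalised level (CPM, TMM-scaled, axes from 0) of 12 antigen presentation genes in each library, with 1 point per library, the group mean as a line and the SD as a bar that is cut at 0. Class I genes such as H2-K1, H2-D1 and Tap2 separate the flushed from the left-over libraries, and Cd74 and H2-Aa separate them the other way with a wide spread among the flushed libraries.

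The flushed fraction was then compared with the left-over fraction, as the mean of both flushed groups against the mean of both left-over groups, a contrast that stays the same if the left-over labels are exchanged. Of 36 members tested, 15 were higher and 15 lower in the flushed fraction at an adjusted p under 0.05 (edgeR quasi-likelihood F test, Benjamini-Hochberg over all genes tested). Of all 21464 genes tested, 81.0% passed the same test, 36.6% higher and 44.4% lower, so the number of members called is near the background and is no result about the members. The median log2 fold change was -0.26 over the 36 members and -0.22 over all genes. What follows describes which member lay on which side. A lower value in bulk RNA can come from fewer cells of a type or from less RNA per cell, which cannot be told apart here.

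The heavy chains and the light chain of classical class I were higher in the flushed fraction. H2-K1 was at 1869, 1248, 1802 and 1722 CPM in flushed knockouts 1 to 4 and 1334, 1383, 2276 and 2834 CPM in flushed controls 1 to 4. In left-over libraries it was at 556, 439.9, 606 and 523 CPM in those labelled knockout and 584 and 599.9 CPM in those labelled control. Every flushed library was above every left-over library, and the difference was a log2 fold change of 1.68 (SE 0.18, edgeR adjusted p = 8.20e-07). H2-D1 gave 5562, 4010.1, 5001 and 5323 CPM in the flushed knockouts and 3958, 4058, 5935 and 7226 CPM in the flushed controls. Its left-over values were 1496, 1324, 1728 and 1695 CPM in libraries labelled knockout and 1762 and 1731 CPM in those labelled control. The fractions did not overlap, and the log2 fold change of H2-D1 was 1.64 (SE 0.15, edgeR adjusted p = 3.09e-08). The ratio of H2-K1 to H2-D1 hardly differed between the fractions, at 31.1 to 39.2 H2-K1 counts per 100 H2-D1 counts in flushed and 30.9 to 37.2 in left-over libraries.

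B2m differed less between the fractions than the heavy chains. It was at 1803, 1077, 1498 and 1448 CPM in flushed knockouts and 1089, 1156, 1888 and 2062 CPM in flushed controls, against 984, 875, 941 and 764 CPM in left-over libraries labelled knockout and 1045 and 1042 CPM in those labelled control. The lowest flushed value lay just above the highest left-over value. The log2 fold change was 0.64 (SE 0.16, edgeR adjusted p = 0.00183). With scaling by library size only it was 0.20 (adjusted p = 0.226), and over all alternative settings its adjusted p ran from 5.02e-04 to 0.226. That scaling moved the median of all genes to -0.65 and the split of called genes to 31.5% higher, against 45.2% higher under TMM, and it turned the direction of no member tested.

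The machinery that makes and loads class I peptides lay on the same side, with all 7 members higher in the flushed fraction and a median log2 fold change of 1.30. Among all genes tested, 36.6% were higher. Nlrc5, the class I transactivator, was at 28.1, 13.7, 31.8 and 24.3 CPM in flushed knockouts and 26.8, 23.3, 36.6 and 48.8 CPM in flushed controls. It was at 7.49, 8.56, 4.42 and 3.90 CPM in left-over libraries labelled knockout and 5.31 and 6.61 CPM in those labelled control. All flushed libraries were above all left-over ones, by a log2 fold change of 2.26 (SE 0.28, edgeR adjusted p = 6.74e-06). Tap2, one chain of the peptide transporter, was at 92.3, 81.7, 94.0 and 103 CPM in flushed knockouts, 93.5, 89.3, 105 and 104 CPM in flushed controls, 20.8, 18.8, 25.3 and 23.9 CPM in libraries labelled knockout and 26.1 and 25.1 CPM in those labelled control. It was the most even member of the flushed fraction, with a highest value 1.29 times its lowest. Its log2 fold change was 2.00 (SE 0.09, edgeR adjusted p = 9.42e-12).

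Tap1, the partner chain, was at 69.1, 34.7, 46.1 and 58.9 CPM in flushed knockouts, 43.8, 42.8, 64.0 and 81.3 CPM in flushed controls, 15.3, 9.77, 17.95 and 15.01 CPM in left-over libraries labelled knockout and 18.2 and 18.1 CPM in those labelled control. The log2 fold change of Tap1 was 1.76 (SE 0.22) without overlap. Tapbp, or tapasin, which bridges class I to the transporter, was at 714, 669, 697 and 826 CPM in flushed knockouts, 678, 669.7, 824 and 930.0 CPM in flushed controls, 275, 248, 319 and 358 CPM in libraries labelled knockout and 327 and 292 CPM in those labelled control. Its log2 fold change was 1.30 (SE 0.11), again without overlap. Tap1 shares 212 bases with Psmb9 on the opposite strand and Tapbp shares 3421 bases with Zbtb22 on the same strand, and the sources used here do not say whether the counts used strand.

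Psmb8, Psmb9 and Psmb10 encode the catalytic subunits that replace those of the standard proteasome in the immunoproteasome. Psmb8 was at 64.1, 51.8, 52.2 and 62.4 CPM in flushed knockouts, 51.8, 49.0, 60.1 and 68.8 CPM in flushed controls, 26.4, 19.9, 29.1 and 23.3 CPM in left-over libraries labelled knockout and 29.1 and 30.9 CPM in those labelled control. Psmb9 was at 70.01, 41.2, 44.6 and 55.0 CPM in flushed knockouts, 45.7, 49.7, 54.6 and 75.6 CPM in flushed controls, 23.7, 17.0, 30.7 and 26.0 CPM in libraries labelled knockout and 30.3 and 30.01 CPM in those labelled control. Psmb10 was at 97.1, 82.0, 87.6 and 104 CPM in flushed knockouts, 89.0, 84.5, 96.5 and 107 CPM in flushed controls, 47.3, 36.4, 63.4 and 71.0 CPM in libraries labelled knockout and 51.5 and 62.3 CPM in those labelled control. Each was higher in every flushed than in any left-over library, with log2 fold changes of 1.08 (SE 0.11), 1.01 (SE 0.17) and 0.75 (SE 0.13), in that order, and edgeR adjusted p-values up to 1.09e-04. The standard subunits Psmb5, Psmb6 and Psmb7 were slightly lower in the flushed fraction, with log2 fold changes of -0.40, -0.41 and -0.17 (edgeR adjusted p = 1.32e-04, 5.16e-05 and 0.0265).

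Each was also set against the standard subunit that it replaces. There were 45.2 to 70.6 Psmb8 counts per 100 Psmb5 counts in flushed libraries and 13.0 to 25.9 in left-over libraries. Psmb9 gave 24.2 to 48.4 counts per 100 Psmb6 counts in flushed and 8.22 to 14.3 in left-over libraries. Psmb10 gave 123 to 189 counts per 100 Psmb7 counts in flushed and 60.0 to 100.2 in left-over libraries. None of the 3 ratios overlapped between the fractions, and since a ratio within a library does not depend on its scaling, the library normalisation cannot move them. All ratios given here were chosen after their values were seen and carry no test.

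**Figure D2:**
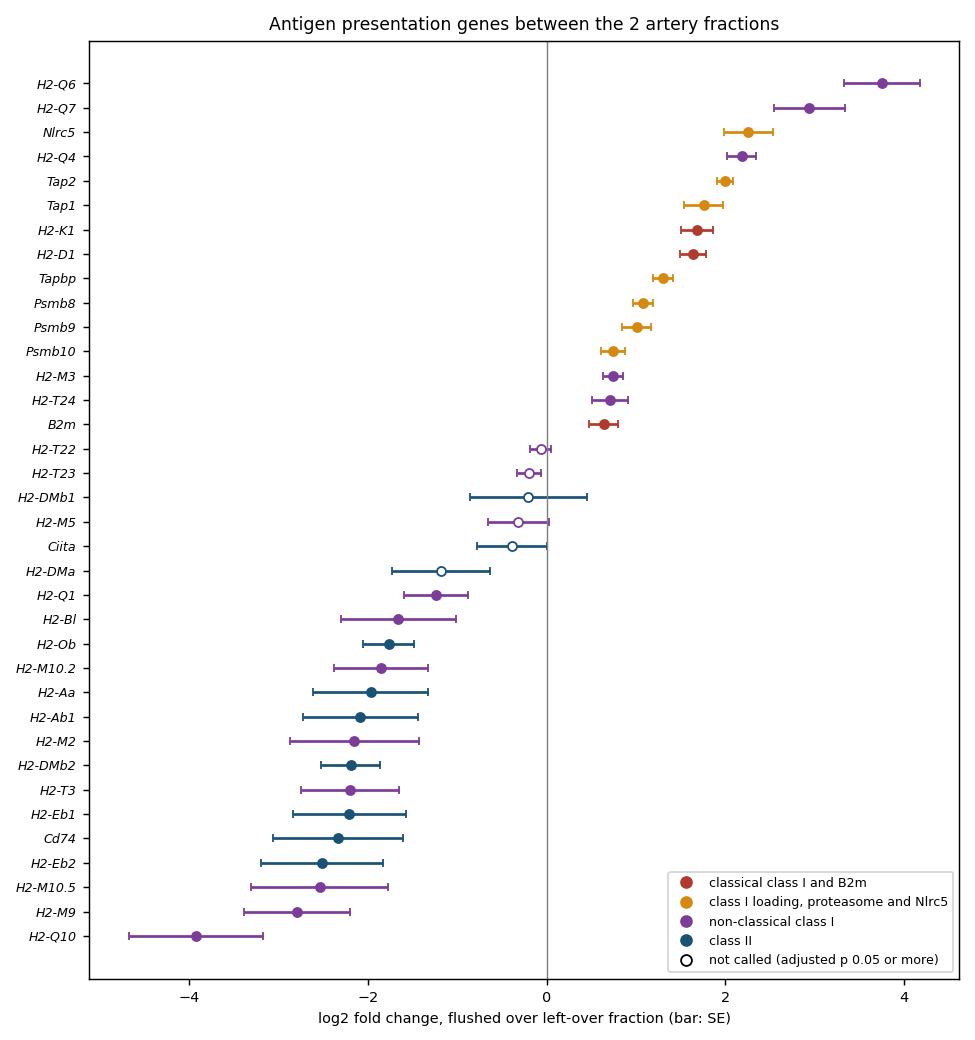
Log2 fold change of the 36 tested antigen presentation genes, flushed over left-over fraction, in order of size, with the SE as a bar, colour by role and open symbols for genes not called at an adjusted p of 0.05. Class I loading and classical class I genes all lie right of 0, all 10 class II genes left of it, and non-classical class I genes lie on both sides, from 3.75 for H2-Q6 to -3.92 for H2-Q10.

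The non-classical class I genes, which lie in the same complex and encode less variable molecules, were divided: of 16 tested, 5 were higher, 8 lower and 3 not called. Of all genes 36.6% were higher and 44.4% lower, so this split is near the background and is no result about these genes. H2-Q6 and H2-Q7 encode the Qa-2 antigens. H2-Q6 was at 677, 219, 564 and 432 CPM in flushed knockouts and 302, 342, 703 and 901 CPM in flushed controls. It was at 28.7, 21.2, 22.7 and 27.8 CPM in left-over libraries labelled knockout and 34.3 and 82.1 CPM in those labelled control. The fractions were far apart, and the left-over library labelled control 2 stood above the other left-over libraries. The log2 fold change of 3.75 (SE 0.43, edgeR adjusted p = 9.54e-06) was the highest of any member.

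H2-Q7 was at 254, 81.5, 187 and 158 CPM in flushed knockouts, 103, 114, 242 and 309.7 CPM in flushed controls, 24.0, 16.5, 24.3 and 15.4 CPM in libraries labelled knockout and 18.9 and 36.4 CPM in those labelled control. Its log2 fold change was 2.94 (SE 0.40, edgeR adjusted p = 4.43e-05). Across the flushed libraries H2-Q7 kept a nearly fixed proportion to H2-Q6, 33.2 to 37.5 counts per 100 H2-Q6 counts, while in left-over libraries it ran from 44.4 to 107. Both genes are uncertain as separate measurements, since 32.0% of the 50-base words of H2-Q6 transcripts and 26.4% of those of H2-Q7 also occur in transcripts of other genes. H2-Q4, another gene of the Q region, was at 23.6, 17.6, 26.0 and 22.3 CPM in flushed knockouts, 19.0, 21.0, 25.5 and 30.1 CPM in flushed controls, 5.68, 3.68, 4.78 and 3.85 CPM in libraries labelled knockout and 4.80 and 6.70 CPM in those labelled control. With a log2 fold change of 2.18 (SE 0.16) it was also without overlap, and 21.8% of its words were shared.

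H2-M3, which presents formylated peptides, and H2-T24 completed the higher group, with log2 fold changes of 0.75 (SE 0.11) and 0.71 (SE 0.20). H2-M3 ran from 46.9 to 73.0 CPM in flushed and from 29.7 to 44.9 CPM in left-over libraries, without overlap, whereas H2-T24 overlapped. With scaling by library size only, H2-T24 was at 0.27 (adjusted p = 0.205) and missed the threshold, so that, with B2m, 13 instead of 15 members were called higher. H2-T23 and H2-T22 did not follow the classical genes. H2-T23, or Qa-1, a ligand of inhibitory receptors on natural killer cells, ran from 179 to 295 CPM in flushed and 237 to 362 CPM in left-over libraries, a log2 fold change of -0.20 (SE 0.13, edgeR adjusted p = 0.183). Per 100 H2-D1 counts there were 3.96 to 5.30 H2-T23 counts in flushed and 15.3 to 21.0 in left-over libraries, far apart and without overlap. H2-T22, a ligand of gamma delta T cells, had a log2 fold change of -0.07 (SE 0.12, edgeR adjusted p = 0.610), and 34.5% of its words were shared, mainly with H2-T10. Scaling by library size called both H2-T22 and H2-T23 lower, at -0.50 and -0.63.

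The 8 non-classical genes that were lower were all rare in the flushed fraction, where none of them passed 3.18 CPM, and H2-Q10 was not rare in the left-over fraction. H2-Q10, which encodes a secreted class I molecule known from the liver, was at 3.18, 1.68, 1.12 and 0.278 CPM in flushed knockouts and 0.0577, 0.879, 1.10 and 0.406 CPM in flushed controls. It was at 22.8, 7.57, 45.0 and 1.86 CPM in left-over libraries labelled knockout and 15.1 and 7.72 CPM in those labelled control. Left-over library labelled knockout 3 was the highest and labelled knockout 4, the lowest left-over library, lay below flushed knockout 1, so the fractions overlapped. The log2 fold change was -3.92 (SE 0.75, edgeR adjusted p = 6.37e-04). H2-M9 and H2-M10.5 followed, at -2.79 (SE 0.60) and -2.54 (SE 0.77). The H2-M10 genes are known for expression in the vomeronasal organ.

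H2-M9 was at 0.156, 0.204, 0.203 and 0 CPM in flushed knockouts, 0.404, 0.714, 0 and 0.0507 CPM in flushed controls, 2.74, 2.10, 1.13 and 0.443 CPM in libraries labelled knockout and 1.29 and 1.40 CPM in those labelled control. H2-M10.5 was at 0, 0, 0.152 and 0.278 CPM in flushed knockouts, 0.0577, 0.110, 0 and 0 CPM in flushed controls, 0.672, 0.683, 0.103 and 0.753 CPM in libraries labelled knockout and 0.554 and 0.0931 CPM in those labelled control. Most flushed values of both are near or under the level of 3 counts, so their fold changes rest on few reads. The other lower genes were H2-T3, H2-M2, H2-M10.2, H2-Bl and H2-Q1, with log2 fold changes between -2.20 and -1.24, and H2-M5 was not called.

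Class II genes had the opposite side: of 10 tested, 7 were lower in the flushed fraction, 3 were not called and none was higher. Among all genes tested, 44.4% were lower and 36.6% higher. H2-Aa encodes the alpha chain of the class II molecule I-A. It was at 113, 8.76, 38.6 and 13.9 CPM in flushed knockouts, 19.7, 14.2, 50.03 and 123 CPM in flushed controls, 220.2, 132, 133 and 128 CPM in left-over libraries labelled knockout and 186 and 266 CPM in those labelled control. Its highest flushed value lay just under its lowest left-over value, and the log2 fold change was -1.97 (SE 0.65, edgeR adjusted p = 0.0160). H2-Ab1, the beta chain of I-A, was at 166, 9.93, 48.5 and 21.8 CPM in flushed knockouts, 29.5, 20.8, 72.6 and 157 CPM in flushed controls, 304, 195, 197 and 218 CPM in libraries labelled knockout and 281 and 399 CPM in those labelled control. The log2 fold change of H2-Ab1 was -2.09 (SE 0.65, edgeR adjusted p = 0.0120), without overlap.

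H2-Eb1, the beta chain of I-E, whose alpha chain C57BL/6 mice do not make, was at 51.6, 2.85, 16.3 and 5.50 CPM in flushed knockouts, 11.2, 7.69, 25.9 and 50.5 CPM in flushed controls, 105, 64.0, 66.1 and 75.7 CPM in libraries labelled knockout and 100.3 and 151 CPM in those labelled control. It differed by -2.21 (SE 0.63, edgeR adjusted p = 0.00783), again without overlap. Cd74, the invariant chain that guides class II through the cell, was at 374, 13.2, 107 and 30.3 CPM in flushed knockouts and 76.0, 41.0, 169 and 374 CPM in flushed controls. It was at 849, 523, 547 and 632 CPM in libraries labelled knockout and 697 and 1028 CPM in those labelled control. The fractions did not overlap, and the log2 fold change was -2.33 (SE 0.73, edgeR adjusted p = 0.0129). When the flushed controls were set against the 2 left-over libraries labelled control alone, H2-Aa, H2-Ab1 and Cd74 kept their direction but missed the threshold, with adjusted p-values of 0.0798, 0.0563 and 0.0565. Over all alternative settings their adjusted p-values ran from 0.00203 to 0.0798 for H2-Aa, from 9.79e-04 to 0.0563 for H2-Ab1 and from 0.00151 to 0.0565 for Cd74.

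Among the genes that act on class II, H2-DMb2 at -2.19 (SE 0.33) and H2-Ob at -1.77 (SE 0.29) were lower. H2-DMb2 is a beta chain of H2-M, which exchanges peptides on class II, and H2-Ob is a chain of its inhibitor H2-O. H2-Eb2 was lower by -2.51, but its CPM reached at most 0.194 in flushed and 0.605 in left-over libraries, a handful of reads. Those not called were H2-DMb1, H2-DMa and the class II transactivator Ciita, with log2 fold changes of -0.20 (SE 0.66), -1.18 (SE 0.55) and -0.39 (SE 0.39) and edgeR adjusted p-values of 0.781, 0.0653 and 0.365. Ciita was at 5.79, 1.32, 2.94 and 1.94 CPM in flushed knockouts, 2.65, 2.42, 3.63 and 8.37 CPM in flushed controls, 3.77, 7.30, 3.81 and 2.48 CPM in libraries labelled knockout and 3.60 and 6.56 CPM in those labelled control, so the fractions overlapped over most of their range. H2-DMa was called lower under both other scalings, with adjusted p-values of 0.0438 with DESeq2 size factors and 0.0163 by library size. Ciita lies across Dexi on the opposite strand.

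Markers of leukocytes lay mostly on the same side as class II between the fractions, and so did all 10 smooth muscle and all 10 fibroblast markers. The median log2 fold change was -4.31 for the smooth muscle, -4.09 for the fibroblast and -3.48 for the pan-leukocyte markers. Of all genes tested 44.4% were lower and 36.6% higher in the flushed fraction. All 6 pan-leukocyte markers were lower in the flushed fraction and summed to 12.6 to 76.5 CPM there and 310.1 to 384 CPM in left-over libraries. Of 12 macrophage markers 11 were lower and Mertk was higher. Of 9 dendritic cell markers 6 were lower and 1 higher, summing to 12.4 to 25.5 CPM in flushed and 54.4 to 91.7 CPM in left-over libraries. Of 6 B cell markers 4 were lower and 1 higher (summed CPM 3.40 to 12.5 in flushed, 6.48 to 36.4 in left-over libraries). Of 7 T and natural killer cell markers tested 6 were lower (summed CPM 1.27 to 2.55 in flushed, 4.68 to 8.27 in left-over libraries). The endothelial markers moved with class I, with all 12 higher in the flushed fraction. The part of cell content in either result was not tested.

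The I-A and I-E chains, Cd74 and H2-DMb1 varied widely among the flushed libraries. The highest Cd74 value among the 8 flushed libraries was 28.3 times the lowest, against 1.96 times among the 6 left-over libraries. For H2-Eb1, H2-Ab1, H2-Aa and H2-DMb1 the flushed span was 18.1, 16.7, 13.99 and 12.2 times, whereas it was 1.83 times for H2-D1, 1.91 times for B2m and 1.40 times for Psmb8. Other class II genes were more even, with a span of 6.32 times for Ciita and 2.5 times for H2-Ob, and the non-classical class I gene H2-Q10, low in this fraction, spanned 55.2 times. Flushed knockout 1 and flushed control 4 were the 2 highest libraries for Cd74, H2-Aa, H2-Ab1, H2-Eb1, H2-DMa, H2-DMb1 and Ciita, and flushed knockouts 2 and 4 were the lowest for Cd74. This was not particular to class II. The same 2 libraries were also the highest of the flushed fraction for Tap1, Psmb8, Psmb9 and H2-T23, though not for H2-K1, H2-D1 or Nlrc5. The 2 high libraries were thus of different genotypes, and the 2 lowest were both knockouts.

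The 2 high libraries differed in their summed macrophage markers, but not every listed marker followed the sum. The summed macrophage markers were 981 CPM in flushed knockout 1 and 404 CPM in flushed control 4, while flushed control 3, whose Cd74 was 169 CPM, had 656 CPM. Mertk weighed unevenly on these sums, with 1473 counts in flushed knockout 1, 2875 in flushed control 4 and 3595 in flushed control 3. Lyz2 had 11972, 2984 and 3544 counts in the same libraries. The listed genes Mrc1 (116, 178 and 322 counts), Cd163 (149, 201 and 241) and Cx3cr1 (18, 24 and 9) were lower in flushed knockout 1 than in flushed control 4. Cd74 counts per 100 counts of the macrophage gene Lyz2 were 59.8 to 247 in flushed and 18.6 to 37.6 in left-over libraries, without overlap, with the highest ratios in flushed control 4 and flushed knockout 3. Per 100 counts of C1qb, a complement gene of macrophages, Cd74 gave 393 to 3991 counts in flushed and 82.3 to 157 in left-over libraries. Per 100 counts of the pan-leukocyte gene Ptprc the fractions overlapped, at 247 to 6575 Cd74 counts in flushed and 2062 to 4011 in left-over libraries. They also overlapped per 100 counts of the pan-leukocyte gene Laptm5, at 432 to 3610 in flushed and 372 to 814 in left-over libraries. Against Mertk the order was reversed, since every flushed library had more Mertk and fewer Cd74 counts than any left-over library. Ratios to the other listed macrophage genes were not taken.

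The make-up of class II RNA also differed between the fractions. H2-DMb1 counts per 100 Cd74 counts were 9.37 to 40.9 in flushed and 3.47 to 4.28 in left-over libraries. H2-DMa, the alpha chain of H2-M, gave 6.21 to 25.1 in flushed and 2.89 to 3.98 in left-over libraries. Neither ratio overlapped between the fractions. The I-A and I-E chains stayed closer to Cd74: H2-Eb1 gave 13.5 to 21.6 counts per 100 Cd74 counts in flushed and 12.0 to 14.6 in left-over libraries, with overlap. The same ratio for H2-Aa was 25.9 to 66.4 in flushed and 20.3 to 26.7 in left-over libraries, also with overlap. Ciita gave 1.55 to 10.0 in flushed and 0.392 to 1.40 in left-over libraries, without overlap. The proportion of the 2 genes for the H2-M beta chain varied among flushed libraries: H2-DMb2 was 2.20 and 1.47 counts per 100 H2-DMb1 counts in flushed knockout 1 and flushed control 4 and 22.05 in flushed control 2. These copies share 24.8% and 22.6% of their 50-base words with other genes, so each is uncertain.

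**Figure D3:**
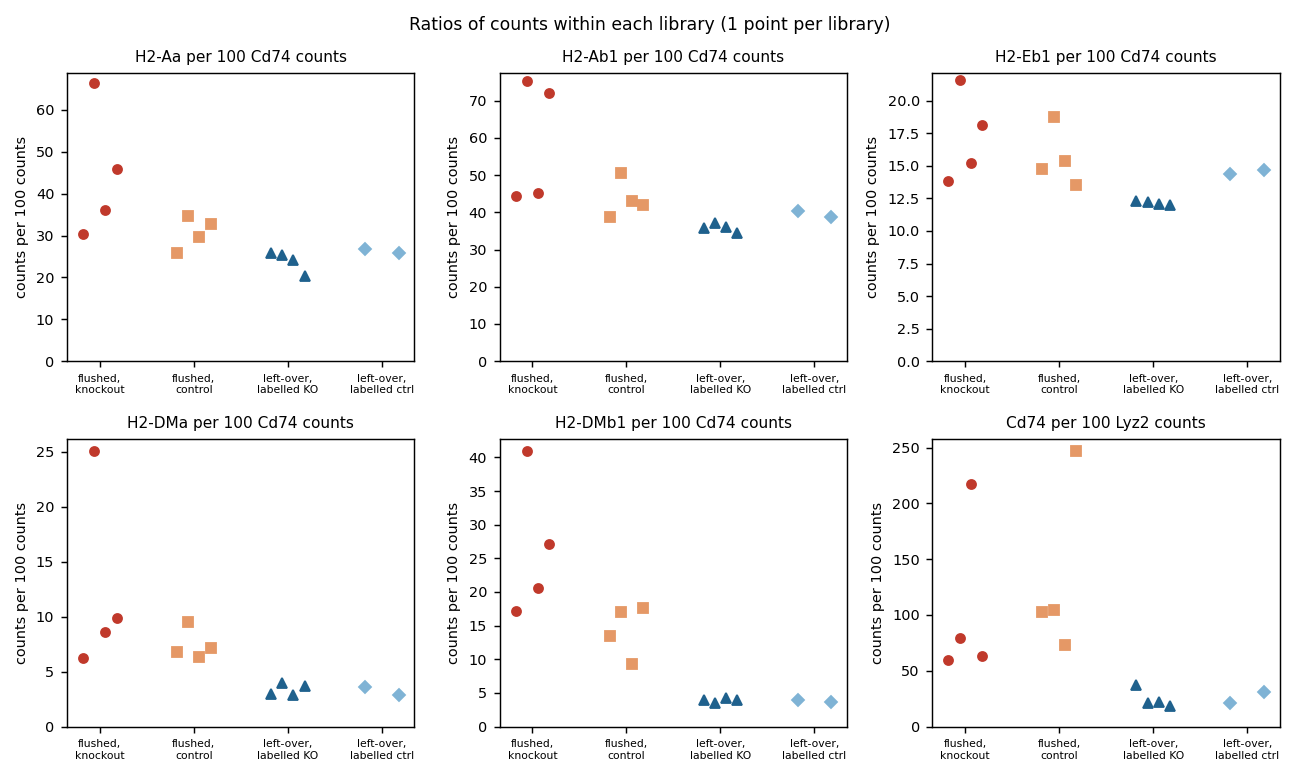
Counts of class II genes per 100 Cd74 counts, and of Cd74 per 100 Lyz2 counts, within each library (linear axes from 0, 1 point per library). The ratios of H2-DMa and H2-DMb1 to Cd74 and of Cd74 to Lyz2 are higher in every flushed than in any left-over library, whereas those of H2-Aa and H2-Eb1 overlap.

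Among the 8 flushed libraries Cd74 was set against 8 other measures on the log2 CPM scale, with permutation p-values adjusted over the 8 relations. Cd74 rose and fell with Ciita: Pearson's r was 0.965 (adjusted permutation p = 7.94e-04) and Spearman's rho 0.976 (adjusted p = 0.00317), and r was 0.977 without the 2 libraries farthest from the median of Ciita. For Nlrc5 r was 0.858 (adjusted permutation p = 0.0196, rho 0.833, adjusted p = 0.0410) and 0.638 without the 2 farthest libraries. For the summed macrophage markers r was 0.812 (adjusted permutation p = 0.0338, rho 0.905, adjusted p = 0.0183), and 0.832 without the 2 farthest, and for the pan-leukocyte sum 0.779 (adjusted permutation p = 0.0457, rho 0.810, adjusted p = 0.0436) and 0.727. Cd74 thus varied together with the class II transactivator and with the macrophage and pan-leukocyte sums, and these measures share the same libraries. The macrophage sum includes Mertk, which was higher in the flushed than in the left-over fraction, and the sum without Mertk was not tested.

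The other 4 relations did not pass. Among them, Cd74 against Irf1 gave r = 0.344 (adjusted permutation p = 0.457, rho 0.262), the dendritic cell sum 0.547 (adjusted permutation p = 0.216, rho 0.595) and the B cell sum 0.108 (adjusted permutation p = 0.804, rho 0.167). Over all 14 libraries, the genes outside the family with the profile most like that of Cd74 were Chmp4b, Cd209b, Apod, Duoxa1 and P2ry13, with Pearson's r of 0.957, 0.946, 0.945, 0.944 and 0.943 on log2 CPM among 21428 genes. The artery fraction is part of those values, and they are given as a description.

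**Figure D4:**
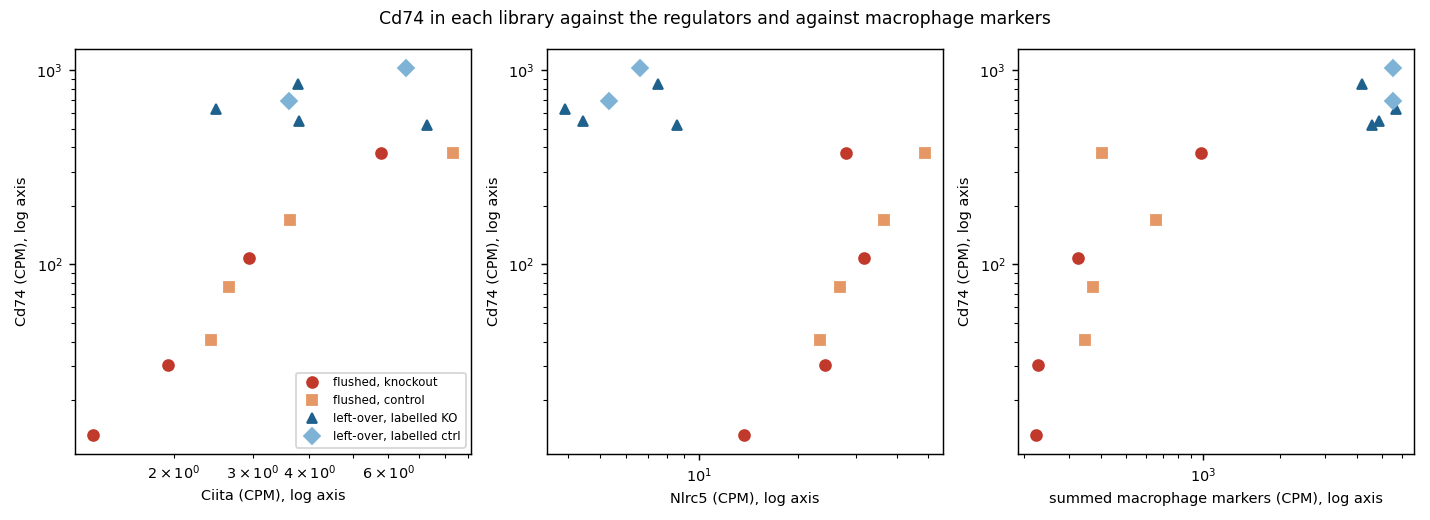
Cd74 in each library against Ciita, Nlrc5 and the summed macrophage markers, Mertk included (CPM, all axes log, 1 point per library). Among the 8 flushed libraries Cd74 climbs with Ciita (r = 0.965), while the 6 left-over libraries lie above them at similar Ciita and at lower Nlrc5.

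The comparison of endothelial knockout with control asked whether loss of Poldip2 in the endothelium changed these genes. None of the 29 members tested was called by edgeR's quasi-likelihood test, none had an unadjusted p under 0.05, and DESeq2 called 0 of them. The background was 0.00%: of 14800 genes tested 0 were called, with 917 (6.20%) at an unadjusted p under 0.05, while DESeq2 called 68. The deleted gene Poldip2 was thus not called by edgeR either, although its CPM was lower in every flushed knockout than in any flushed control. The lack of called members therefore does not show that they were unchanged. The smallest adjusted p of a member was 0.820, for H2-DMb2. In direction 25 of 29 members had a negative estimate, including all 9 class II and all 7 class I loading genes, against 7184 of all 14800 genes, and the median was -0.17, against 0.01 for all genes. This direction rested on single libraries: of 15 named members, all negative, 11 turned positive without flushed control 4 and 7 without flushed knockout 2.

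Marker lists also differed between these groups. Of 9 smooth muscle markers tested 8 had a positive estimate (median 0.63, 5 with an unadjusted p under 0.05), and the list summed to 495 to 744 CPM in flushed knockouts and 395 to 509 CPM in flushed controls. Of 10 fibroblast markers 7 had a negative estimate (median -0.67), with sums of 1146 to 3824 CPM in flushed knockouts and 2191 to 4392 CPM in flushed controls. Of 6 dendritic cell markers tested 5 were negative (median -0.56), with sums of 12.4 to 25.5 CPM in flushed knockouts and 15.8 to 24.2 CPM in flushed controls. Their part in the estimates of the members was not tested.

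The estimates of the classical class I genes and of most loading genes were small, with SEs below those of the class II genes named further on. For H2-D1 and B2m the SE was still larger than the estimate, so small changes could not be detected. The estimates of the 10 non-classical genes tested ran from -0.74 to 1.34. H2-K1 averaged 1660.0 ± 281 CPM in flushed knockouts and 1957 ± 728 CPM in flushed controls (SD, n = 4 each), a log2 fold change of -0.25 (SE 0.25). H2-D1 averaged 4974 ± 683 CPM in flushed knockouts and 5294 ± 1577 CPM in flushed controls (SD, n = 4 each), a log2 fold change of -0.10 (SE 0.20). B2m gave -0.10 (SE 0.23), and Tap2, Tap1, Tapbp, Psmb8, Psmb9 and Psmb10 lay between -0.17 and -0.01 with SEs of 0.09 to 0.26. The groups overlapped for each of these genes. Nlrc5 averaged 24.5 ± 7.81 CPM in knockouts and 33.9 ± 11.4 CPM in controls (SD, n = 4 each), -0.48 (SE 0.30, edgeR adjusted p = 0.847).

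The class II estimates had wide errors. Cd74 averaged 131 ± 167 CPM in flushed knockouts and 165 ± 149 CPM in flushed controls (SD, n = 4 each), and its log2 fold change was -0.35 (SE 1.09, edgeR adjusted p = 0.977). On its log2 CPM, permuting the labels exactly (two-sided) gave p = 0.543, where 0.0286 is the smallest p that 4 against 4 libraries can give. For H2-Aa, H2-Ab1, H2-Eb1 and H2-DMb1 the SE was 0.96, 0.96, 0.96 and 0.97, each larger than its estimate, so a difference between the groups was not detectable at this spread. The direction for Cd74 depended on single libraries: it was -1.71 without flushed knockout 1, 0.43 without flushed control 4 and 0.03 without flushed knockout 2. With flushed knockout 1 and flushed control 3 both left out, the 2 flushed libraries with the highest macrophage marker sums, the member count stayed at 0.

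**Figure D5:**
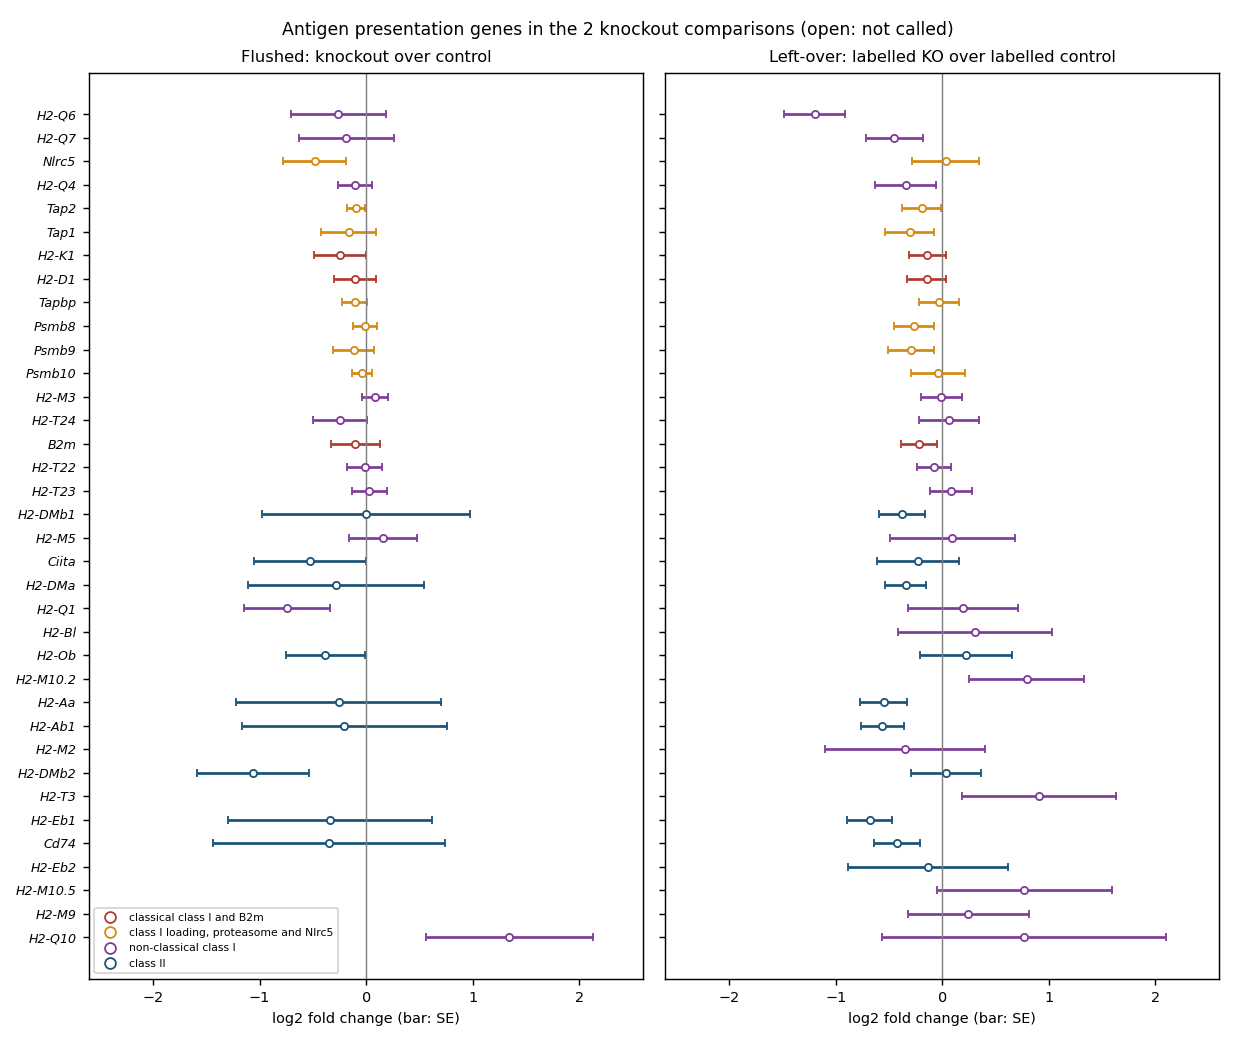
Log2 fold change with its SE for each tested antigen presentation gene, flushed knockout over flushed control on the left (29 genes) and left-over labelled knockout over labelled control on the right (36 genes), in the order of the fraction comparison. All symbols are open since no gene was called, and the widest errors on the left belong to class II genes such as Cd74 (SE 1.09).

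In the left-over fraction the libraries labelled knockout were compared with those labelled control, with the doubt about these labels stated above. By edgeR none of the 36 members tested was called, against a background of 0.792% (162 of 20442 genes, with 0.372% of genes called lower). At an unadjusted p under 0.05 there were 4 of the 36 members, a share near the 10.4% of all genes and so no result about the members. DESeq2 called 1, H2-Q6. All 4 had negative estimates, lower in the libraries labelled knockout: H2-Q6 at -1.20 (SE 0.29, edgeR adjusted p = 0.114), H2-Eb1 at -0.68 (SE 0.21, 0.203), H2-Ab1 at -0.56 (SE 0.20, 0.297) and H2-Aa at -0.55 (SE 0.22, 0.391). The H2-Q6 values, listed above, were all lower in the libraries labelled knockout than in either labelled control, and those of H2-Eb1, H2-Ab1 and H2-Aa overlapped between the labels. Without the left-over library labelled control 2, those of H2-Eb1, H2-Ab1 and H2-Aa were -0.37, -0.30 and -0.29. The authors' deposited table has 1 member past an adjusted p of 0.05 between its smooth muscle knockout and control columns, H2-Q6, at a log2 fold change of 0.90, with the control column being the mean of the libraries labelled knockout.

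Classical class I differed little there: H2-K1 gave -0.14 (SE 0.18), H2-D1 -0.15 (SE 0.18) and B2m -0.22 (SE 0.17). Cd74 averaged 638 ± 148 CPM in libraries labelled knockout (SD, n = 4) and 863 ± 234 CPM in those labelled control (SD, n = 2), a log2 fold change of -0.42 (SE 0.21, edgeR adjusted p = 0.539). For Cd74 the labels, permuted exactly, gave p = 0.200, where the smallest p that 4 against 2 libraries allow is 0.0667, so this design cannot reach 0.05. Without the library labelled control 2 the estimate for Cd74 was -0.13. Of the 36 members 23 had a negative estimate, with a median of -0.14, against 0.03 for all genes. Among the marker lists 1 gene was called, the plasmacytoid dendritic cell gene Siglech, at -1.94 (SE 0.35, edgeR adjusted p = 0.0473), and 10 of 12 endothelial markers had negative estimates, summing to 291 to 911 CPM in libraries labelled knockout and 807 to 1234 CPM in those labelled control. Their part in the class I and class II values was not tested.

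Whether the knockout effect differed between flushed and left-over fractions was tested in 1 model over all 14 libraries. This contrast takes the left-over labels as given, and if they are exchanged it tests the sum of both effects and not their difference. None of the 36 members was called by edgeR (background 0.256%), 1 had an unadjusted p under 0.05 (12.8% of all genes did), H2-T3 at -2.98 (SE 1.13, adjusted p = 0.280), and DESeq2 called 0. H2-T3 encodes the thymus leukaemia antigen and was at most 0.659 CPM in flushed libraries, so this value rests on few reads.

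Genes outside the family that serve the same pathways were described from lists chosen with earlier results known, and the genes named from them were chosen after their values were seen. Of all genes tested between the fractions 36.6% were higher and 44.4% lower, and the counts from these lists stand beside those shares. Of 10 genes of class I loading and the proteasome, 6 were higher and 3 lower in the flushed fraction, the lower ones being the standard proteasome subunits above. Erap1, which trims peptides in the endoplasmic reticulum, was higher by 2.47 (SE 0.09) and Tapbpl, a peptide editor related to tapasin, by 1.78 (SE 0.12). Of 9 genes of class II processing, 6 were lower and 2 higher. Ctss, the protease that cuts the invariant chain, gave -4.05 (SE 0.64), and Ifi30, a lysosomal thiol reductase, gave -1.62 (SE 0.13). Of 16 regulators and genes of interferon gamma signalling 11 were higher and 3 lower. Irf1 was higher by 1.71 (SE 0.12), while Socs1, an inhibitor of interferon gamma signalling, gave -2.64 (SE 0.22). The promoter factors shared by both classes included Rfx5 at 1.38 (SE 0.16) and Nfya at 1.16 (SE 0.15).

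Costimulation genes were near the shares of all genes (36.6% higher, 44.4% lower), with 3 higher and 4 lower of 7 tested. Cd86, a ligand of CD28 on antigen-presenting cells, gave -4.74 (SE 0.42), whereas Cd274, or PD-L1, gave 2.17 (SE 0.23) and Cd40 1.64 (SE 0.21). Likewise near those shares, 3 of 6 class I-like genes outside the complex were higher and 3 lower, among the latter Cd1d1, which presents lipids, at -3.44 (SE 0.43). Each value named from these lists passed the edgeR test, at adjusted p-values up to 1.80e-04. None of the genes on these 5 lists was called by edgeR or by DESeq2 in either knockout comparison. At an unadjusted edgeR p under 0.05 there were 2 in the flushed and 6 in the left-over fraction, where 6.20% and 10.4% of all genes passed.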

How the data were processed

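RNA was measured by sequencing in 14 libraries grouped by their labels. The authors deposited 1 gene table with raw read counts, FPKM values, group means, log2 fold changes and adjusted p-values. The aligners STAR 2.5 and TopHat, the counter HTSeq 0.6.1, STAR-Fusion, edgeR 3.16.5 and DESeq2 were used upstream, per the submitters' processing notes, which give no order or role. The deposited FPKM scale counts to gene length and library total, per the file headers. The notes name mm9, but the deposited starts of 41 of 45 members lay within 5 kb of those in GENCODE M21 (GRCm38), and promoters came from RefSeq on GRCm38.p6.

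Counts were tested with edgeR 4.0.16 (limma 3.58.1, R 4.3.3): filterByExpr (minimum count 10, minimum total 15), TMM scaling, robust quasi-likelihood F test, Benjamini-Hochberg adjustment over all genes tested, calls at an adjusted p under 0.05. The knockout comparisons used their own libraries, and the fraction comparison and the difference of effects used all 14. DESeq2 1.42.0 was an alternative. Log2 CPM used a prior count of 2. The analysis code was tested on simulated data.

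Genes were named by a rule: classical class I and II, loading and regulator genes, and the 5 called members at either end of the fraction comparison. Members, lists and tests were chosen with earlier results of these data known. Sequence sharing was counted over 50-base words of GENCODE M21 transcripts.

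Deviations of same-numbered flushed libraries correlated at -0.19 to 0.16, so repeat numbers showed no steady pairing there. Those of left-over libraries correlated at -0.03 and 0.34. These values cannot decide on pairing, since the deviations of the 2 libraries labelled control mirror each other. For the 3 label numbers found in both fractions the correlation was -0.01, 0.20 and -0.19, and whether these mark the same animals is not known. Settings tried were other scalings, no filter, DESeq2, a block for repeat number, other library subsets and omission of each library. The values of 1 relation and of 1 pathway gene are not reported here.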

Additional observations from a re-analysis of the deposited data

Results flagged for a closer look

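Among 66 tests for a library far from the others of its group of 4 (the gap to the nearest library divided by the group's range, held against Dixon's critical value), 3 passed, and chance alone passes about 1 in 20 groups. H2-Aa was high in left-over library labelled knockout 1 (ratio 0.951), with 220.2 CPM, where the nearest library had 133 and the lowest 128 CPM. H2-Eb2 was high in flushed knockout 1 (ratio 1), with 0.104 CPM against 0 in the other flushed knockouts, under the level of 3 counts. H2-M10.5 was low in left-over library labelled knockout 3 (ratio 0.875), with 0.103 CPM, where the nearest library had 0.672 and the highest 0.753 CPM.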

How the results depend on the processing

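In the fraction comparison no named gene reversed, and omission of single libraries gave 16083 to 17393 genes and 26 to 31 members called (15 higher each time). Without left-over labelled control 2, H2-Aa (adjusted p = 0.0549) and H2-Eb2 missed the threshold, and without labelled control 1 H2-M10.5 did. Flushed controls against libraries labelled control alone gave 18 members (14 higher, 4 lower), with B2m, H2-M9, H2-Aa, H2-Ab1 and Cd74 past the threshold no longer. DESeq2 gave Cd74 no adjusted p. Flushed control 3 and knockout 1 left out together, a choice made after seeing the data, gave 16877 genes and 31 members. With the 3 label numbers shared by both fractions as a block, on flushed controls against libraries labelled knockout (6 libraries), 12101 genes and 26 of 33 members were called (15 higher, 11 lower). No low-count filter and DESeq2 scaling moved the median of all genes to -0.74 and -0.36.

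In the flushed knockout comparison the 0 genes called became 14 with no filter, 68 with DESeq2, 4 with all 14 libraries fitted and 97 with control 3 and knockout 1 left out, and 0 to 20 on omission of single libraries (20 without knockout 1), while members stayed at 0. Psmb8 turned to 0.00958 by library size, 0.0325 with no filter and 0.00433 over 14 libraries, and Psmb10 to 0.00480 with no filter. On omission of single libraries the log2 fold change ran from -0.21 to 0.0715 for H2-D1, -0.23 to 0.0546 for B2m, -1.33 to 0.61 for H2-Aa, -1.38 to 0.56 for H2-Ab1, -1.53 to 0.32 for H2-Eb1, -1.71 to 0.43 for Cd74, -0.0716 to 0.0767 for Psmb8, -0.27 to 0.0455 for Psmb9, -0.11 to 0.0167 for Psmb10, -0.32 to 0.0301 for Tap1 and -1.04 to 0.0198 for Ciita.

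In the left-over comparison the 162 genes became 397 with no filter and 436 with DESeq2 (41 to 260 on omission of single libraries), and the members 2 with no filter (H2-Eb1 and H2-Q6) and 1 with DESeq2 (0 to 1 on omission). Tapbp turned to 0.00441 by library size. Omission ranges crossed 0 for Psmb10 (-0.21 to 0.12), Tapbp (-0.14 to 0.0667), Ciita (-0.59 to 0.25) and Nlrc5 (-0.16 to 0.19). The difference of effects gave 438 genes with DESeq2 and 7 to 131 on omission, with 0 members throughout.

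A block for repeat number, for which no steady pairing was seen, left 0 flushed genes called and gave 16960 genes and 30 members between fractions. In the left-over comparison it gave 2015 genes with 1 member (Psmb9), and Ciita turned to 0.0924. That left-over fit has few libraries for its number of terms, so its counts are uncertain. The causes of these changes were not tested. Depth limits the rare members, at or near 3 counts in flushed libraries.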
